A study of Homo sapiens with 16 samples.

Results

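Levels of 10 transcription factor genes of the T lineage were examined in RNA-seq counts of Jurkat and HSB-2, 2 human cell lines of T-ALL (acute lymphoblastic leukemia of the T lineage). The genes were TCF7, LEF1, BCL11A, BCL11B, SATB1, TOX, TOX2, IKZF1, IKZF2 and IKZF3, taken by symbol from the 57820 genes of the count table, and each was found in 1 row. All 10 passed the filter on low counts in each fit. The study asked what a partial loss of USP7, which encodes a deubiquitylating enzyme, does to transcription in T-ALL with active TAL1. Both lines are labelled TAL1+, and each gave 4 groups of 2 libraries: wild-type cells that were not transduced, cells given a scrambled control, and cells given USP7 shRNA-4057 or USP7 shRNA-4058, hairpins that target different exons. Per the study's methods, the hairpins were delivered by lentivirus and transduced cells were sorted for GFP or selected with puromycin, so the wild-type cells had gone through neither step. The scrambled control is called an siRNA in the sample labels and an shRNA in the series' design. No label says whether the replicates came from separate transductions or from the same culture, so the p-values measure the spread between these libraries, which may be technical.

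These factors act in overlapping steps of T-cell development. TCF7, which encodes TCF-1, and LEF1 are HMG-box proteins that bind the same DNA sequence, with beta-catenin as a co-activator or TLE proteins as co-repressors, and TCF7 is induced early by Notch signalling. BCL11B is a zinc-finger factor required for commitment to the T lineage, and its relative BCL11A is needed for B-lymphoid development. SATB1 organises chromatin in thymocytes, TOX is an HMG-box factor needed for CD4 T-cell development, and the Ikaros family (IKZF1, Ikaros; IKZF2, Helios; IKZF3, Aiolos) consists of zinc-finger proteins that associate with the NuRD chromatin remodelling complex in lymphocytes.

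Promoter windows are shown for TCF7 and LEF1, HMG-box relatives whose levels moved differently in HSB-2, and for IKZF1, which was higher than scrambled in both lines. IKZF3 was also higher than scrambled in both lines, but no window was at hand for it. Against wild-type, IKZF1 was called in neither line. TAL1 and the E proteins bind E-boxes, here the letters CANNTG, and capitals mark each match. Each window runs from 250 bases before to 50 bases after the first listed gene start in RefSeq (GRCh38.p14, a later build than that of the counts), and is printed from its 5′ to its 3′ end.
TCF7, chr5:134115363-134115662, plus strand: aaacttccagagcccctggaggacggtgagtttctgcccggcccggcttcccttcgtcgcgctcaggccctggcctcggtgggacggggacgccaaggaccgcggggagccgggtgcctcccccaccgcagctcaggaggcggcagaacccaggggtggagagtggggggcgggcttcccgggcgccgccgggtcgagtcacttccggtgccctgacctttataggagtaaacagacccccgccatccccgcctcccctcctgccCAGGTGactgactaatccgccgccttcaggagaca
LEF1, chr4:108166252-108166551, minus strand: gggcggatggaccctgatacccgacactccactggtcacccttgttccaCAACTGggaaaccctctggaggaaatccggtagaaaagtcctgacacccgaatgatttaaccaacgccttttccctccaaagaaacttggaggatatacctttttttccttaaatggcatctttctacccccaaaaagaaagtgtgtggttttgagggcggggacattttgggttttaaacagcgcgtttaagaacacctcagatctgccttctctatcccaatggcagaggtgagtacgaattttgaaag
IKZF1, chr7:50304466-50304765, plus strand: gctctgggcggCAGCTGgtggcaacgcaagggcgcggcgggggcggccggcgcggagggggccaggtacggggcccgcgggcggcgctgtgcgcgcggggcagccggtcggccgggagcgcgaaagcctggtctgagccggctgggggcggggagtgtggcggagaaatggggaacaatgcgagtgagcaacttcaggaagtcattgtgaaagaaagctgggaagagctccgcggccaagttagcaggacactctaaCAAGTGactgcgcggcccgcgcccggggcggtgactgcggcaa

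The printed windows of TCF7 and LEF1 held 1 E-box each and that of IKZF1 held 2. RefSeq windows were at hand for 8 of the 10 genes, and 68.7% of the 35116 windows of the whole table held at least 1 E-box, so a match is common. The core GGGAA, which Ikaros proteins bind, was found 2 times in each of the 3 printed windows and is in 65% of all windows. The TCF/LEF core CTTTG was found in 1 copy in the LEF1 window and is in 47.5% of all windows. Matches were searched on both strands, are counts of letters only, and say nothing of binding in these cells.

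The libraries held between 76.6 and 235 M (mega) counts, and in Jurkat between 86.9 and 110 M. The 10 most abundant genes took 14.9% and 17.0% of the counts in the Jurkat scrambled libraries and 8.16% to 12.1% elsewhere. USP7 itself was lower than scrambled with both hairpins in 1 group, with a log2 fold change of -0.97 in Jurkat (adjusted p 0.020) and -0.55 in HSB-2 (edgeR quasi-likelihood adjusted p 1.1e-04). The pooled Jurkat call was lost without scrambled replicate 1 (-0.99) or scrambled replicate 2 (-0.97), and held against wild-type (-0.99, adjusted p 0.045). Singly, in the fit of all 16 libraries, USP7 in Jurkat was at -1.43 with shRNA-4057 and -0.67 with shRNA-4058 against scrambled. In HSB-2 the values were -0.61 and -0.49. Each was called, with edgeR quasi-likelihood adjusted p from 9.0e-20 to 1.9e-11. The loss of USP7 was thus unequal between hairpins and between lines, and its part in the comparisons below was not tested. The 8 T-lineage markers (CD3D, CD3E, CD3G, CD247, CD2, CD5, CD7 and LCK) summed to 1864 to 2561 CPM (counts scaled to the library total with TMM factors) in Jurkat and 2250 to 3471 CPM in HSB-2. Their sum was highest in the scrambled libraries in Jurkat (2490 and 2561 CPM) and lowest in the scrambled libraries in HSB-2 (2250 and 2342 CPM). Of the 8 markers, 5 were called lower with USP7 shRNA in Jurkat and all 8 were called higher in HSB-2. Of all genes tested, 15.7% were called lower in Jurkat and 20.3% higher in HSB-2. Against wild-type, 3 markers were lower in Jurkat and 3 higher in HSB-2, with no share of all genes given here for that control. The marker genes of the T lineage thus moved with the comparisons below, and their part in the results was not tested. In bulk RNA, fewer cells of a type and less RNA per cell cannot be told apart. Myeloid markers summed to at most 1.19 CPM. The 8 B-lineage markers summed to 25.7 to 68.2 CPM in Jurkat, mostly CD79A, and to 1.28 to 4.93 CPM in HSB-2, where CD79B, MS4A1, CD22 and BLNK had at most 3 counts in every library.

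LEF1 was the most abundant of the 10 genes per exon length in each of the 8 groups, and BCL11A, TOX2 and IKZF3 were the least abundant. In wild-type Jurkat the level was 194 CPM per kb for LEF1, 59.3 for TCF7, 45.7 for IKZF1, 42.3 for TOX, 41.9 for BCL11B, 28.6 for IKZF2 and 14.7 for SATB1. BCL11A followed at 2.58 CPM per kb, then TOX2 at 1.55 and IKZF3 at 0.924. In wild-type HSB-2 the order was LEF1 (95.9 CPM per kb), TOX (29.7), BCL11B (29.4), IKZF1 (27.7), TCF7 (25.8), IKZF2 (16.2), SATB1 (4.35), TOX2 (0.610), IKZF3 (0.223) and BCL11A (0.0683). Neighbours in these orders were separated by library except for 4 pairs: TOX and BCL11B overlapped in wild-type cells of both lines, IKZF1 and TCF7 in Jurkat with shRNA-4057, and IKZF2 and TOX in Jurkat with shRNA-4058. TCF7 held the second place in wild-type Jurkat and the fifth in wild-type HSB-2, and it was second in HSB-2 with either hairpin. Lengths are all exons of a gene merged, from 3235 bases for TOX2 to 24514 for BCL11A, so a gene with long, little-used exons is placed too low.

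**Figure D1:**
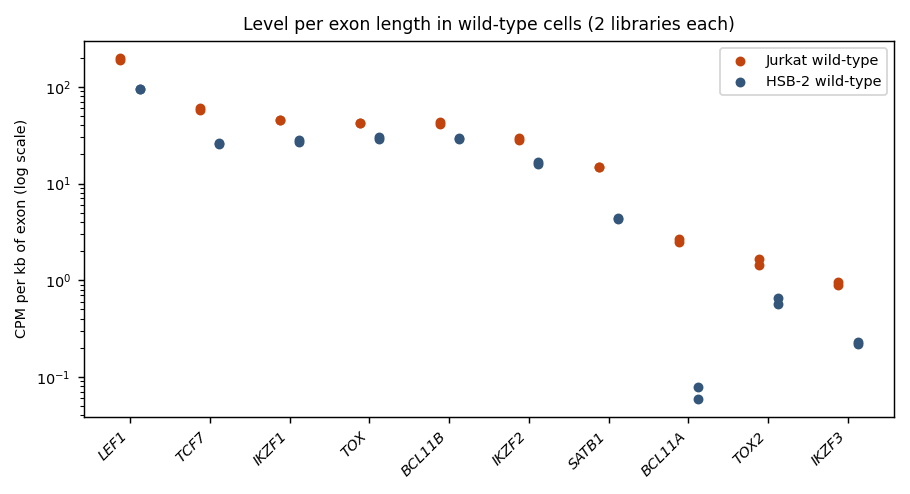
Level in CPM per kb of merged exon (log axis) of each gene in the wild-type libraries of Jurkat and HSB-2, with 1 point per library. LEF1 lies highest in both lines, at group means of 194 and 95.9 CPM per kb, and BCL11A shows the widest gap between the lines.

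All 10 genes were higher in wild-type Jurkat than in wild-type HSB-2, in a fit of all 16 libraries as 8 groups, and 34.6% of all genes tested were called higher and 33.5% lower in that comparison. BCL11A differed most, by 36.1-fold (log2 5.17, SE 0.09, edgeR quasi-likelihood adjusted p 5.9e-24). IKZF3 was 4.16-fold higher, SATB1 3.37-fold, TOX2 2.57-fold, TCF7 2.30-fold and LEF1 2.02-fold. The smallest differences were those of IKZF2 (1.77-fold), IKZF1 (1.65-fold), BCL11B (1.43-fold) and TOX (1.42-fold).

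USP7 shRNA moved the same factors in different ways in the 2 lines. In Jurkat, with both hairpins as a group of 4 libraries against 2 scrambled libraries, 4 of the 10 genes were called higher (BCL11B, IKZF1, IKZF2 and IKZF3) and 3 lower (BCL11A, SATB1 and TOX), where 12.4% of all genes tested were called higher and 15.7% lower. In HSB-2, 6 were called higher (TCF7, BCL11A, TOX, TOX2, IKZF1 and IKZF3) and 0 lower, against 20.3% and 17.8% of all genes, by edgeR's quasi-likelihood test. BCL11B was the only one below 0 in HSB-2, with an unadjusted p of 0.063, so 0 were lower at an unadjusted p under 0.05 or by DESeq2. The median log2 fold change of the 10 genes was 0.078 in Jurkat and 0.26 in HSB-2, and that of all genes tested was 0.020 and -0.018. Of all calls in Jurkat, 44.1% were higher, and the share was 81.2% with library totals in place of TMM scaling and 55.7% with an offset for GC content and gene length. In HSB-2 the share was 53.2%, and 32.5% with library totals.

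The Jurkat calls rested on both scrambled libraries. Without scrambled replicate 1 or without scrambled replicate 2, the Jurkat calls were those of BCL11A and TOX alone, and fewer of all genes tested were called as well. The fold changes of the other called genes kept their direction on leaving out any library of the comparison. They were 0.21 to 0.26 for BCL11B, 0.24 to 0.28 for IKZF1, 0.36 to 0.43 for IKZF2, 1.45 to 1.70 for IKZF3 and -0.28 to -0.23 for SATB1. In HSB-2 the calls of TOX and IKZF3 were lost without either scrambled library, which left 4. The choice of control also mattered. With wild-type cells in place of scrambled, 4 genes were called in Jurkat, of which 3 in the same direction, and 2 in HSB-2, of which 1 in the same direction. Over all genes tested, calls fell with that control from 5965 to 1798 in Jurkat and from 8049 to 5010 in HSB-2.

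**Figure D2:**
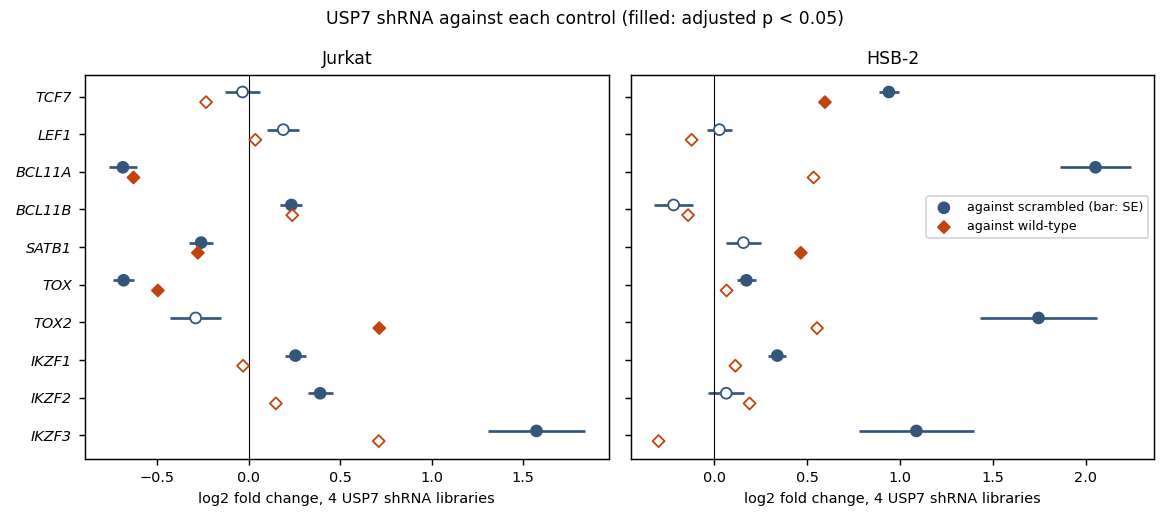
Log2 fold change of each gene in the 4 USP7 shRNA libraries of a line, against 2 scrambled libraries (circles, with SE) and against 2 wild-type libraries (diamonds), where a filled symbol marks an adjusted p under 0.05. BCL11A and TOX lie below 0 against both controls in Jurkat, TCF7 lies above 0 against both in HSB-2, and TOX2 in Jurkat changes side with the control.

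Scrambled and wild-type cells differed in most of these genes. In Jurkat, 2 of the 10 were called higher in scrambled cells (TOX and TOX2; 14.8% of all genes were) and 5 lower (TCF7, LEF1, IKZF1, IKZF2 and IKZF3; 11% of all genes were). In HSB-2, 2 were called higher (SATB1 and IKZF2; background 16.1%) and 7 lower (TCF7, LEF1, BCL11A, TOX, TOX2, IKZF1 and IKZF3; background 17.9%). TCF7, LEF1, IKZF1 and IKZF3 were thus lower in scrambled than in wild-type cells in both lines, by edgeR's quasi-likelihood test. Pooled values against wild-type therefore stand beside those against scrambled for each of the 10 genes, and so does the lines' difference for the genes where that control moved it most.

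Singly, in the fit of all 16 libraries, shRNA-4057 left 5 genes called higher and 4 lower than scrambled in Jurkat, where 22.7% and 27.3% of all genes were called. With shRNA-4058 the numbers were 4 higher and 4 lower, against 19.7% and 26.7%. In HSB-2, shRNA-4057 left 9 genes higher and 0 lower (21.9% and 21.7% of all genes), and BCL11B, the remaining gene, was at -0.08 (edgeR quasi-likelihood adjusted p 0.091, unadjusted p 0.044, and not lower by DESeq2). With shRNA-4058 in HSB-2, 6 genes were higher and 1, BCL11B, was lower (26.6% and 26.2% of all genes). The error of this fit is the spread between replicates alone, and both hairpins of a line share their scrambled libraries.

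The hairpins also differed from each other. In Jurkat, 5 of the 10 genes were higher with shRNA-4057 than with shRNA-4058 and 2 were lower, where 17.7% and 16.2% of all genes were called, by edgeR's quasi-likelihood test. In HSB-2, 5 were higher and 1 was lower, against 10.5% and 14.3%. LEF1, SATB1 and IKZF3 were higher with shRNA-4057 in both lines. The effect of shRNA-4057 was called larger (more positive) in HSB-2 than in Jurkat for 5 genes and smaller for 4 (24.9% and 21.8% of all genes), and that of shRNA-4058 was larger for 6 and smaller for 3 (29.6% and 26% of all genes). With wild-type in place of scrambled in both lines, the numbers were 5 and 4 for shRNA-4057, where 7 of the 9 genes were called in the same direction against scrambled, and 5 and 2 for shRNA-4058. The share of all genes called with that control is not reported here, so these numbers have no background to stand against.

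**Figure D3:**
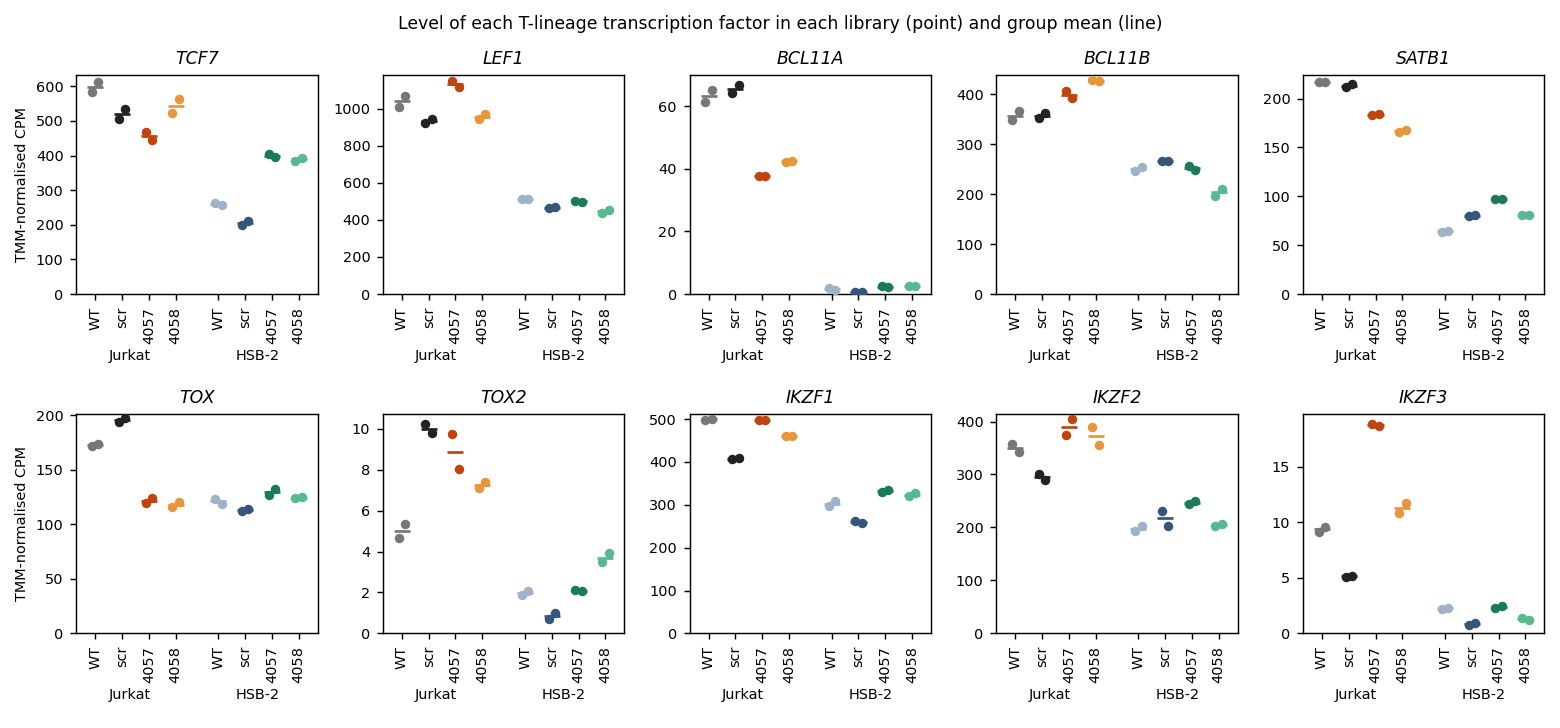
Level of each gene in TMM-scaled CPM by group, with 1 point per library and a line at the group mean (WT, wild-type; scr, scrambled; the other labels, shRNA-4057 and shRNA-4058), on axes that start at 0. TCF7 lies between 384 and 404 CPM in the HSB-2 shRNA libraries, above all HSB-2 control libraries, while TOX and BCL11A in Jurkat lie below all control libraries.

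TCF7 (ENSG00000081059.15, chromosome 5 from 133450372 to 133487556 on the plus strand of GRCh37) rose 1.92-fold with USP7 shRNA in HSB-2. Its levels there were 263 and 257 CPM in wild-type, 201 and 211 CPM in scrambled, 404 and 395 CPM with shRNA-4057, and 384 and 394 CPM with shRNA-4058. All 4 shRNA libraries lay above all 4 control libraries. The log2 fold change against scrambled was 0.94 (SE 0.05, edgeR quasi-likelihood adjusted p 4.0e-06), and it was 0.60 against wild-type (adjusted p 1.7e-04). Both hairpins gave nearly the same value, 0.95 and 0.92, and their difference of 0.04 was not called (SE 0.04, edgeR quasi-likelihood adjusted p 0.55).

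In Jurkat, TCF7 stood at 584 and 613 CPM in wild-type, 505 and 534 CPM in scrambled, 467 and 444 CPM with shRNA-4057, and 522 and 564 CPM with shRNA-4058. The shRNA libraries overlapped the scrambled ones and lay below both wild-type ones. The pooled log2 fold change was -0.03 (SE 0.10, edgeR quasi-likelihood adjusted p 0.82) and -0.23 against wild-type (adjusted p 0.18). With shRNA-4057 alone TCF7 was lower than scrambled by edgeR's quasi-likelihood test (log2 -0.19, adjusted p 3.5e-04), but the value was 0.08 with library totals in place of TMM scaling. With shRNA-4058 it was at 0.06 (adjusted p 0.21), and was called higher without scrambled replicate 2 of Jurkat (0.14, adjusted p 0.019), without Jurkat shRNA-4058 replicate 1 (0.11, adjusted p 0.044), without wild-type replicate 1 of HSB-2 (0.10, adjusted p 0.045) or without shRNA-4058 replicate 2 of HSB-2 (0.10, adjusted p 0.048), while against wild-type it was lower (-0.14, adjusted p 0.0078). The effect was larger in HSB-2 by 1.14 on the log2 scale for shRNA-4057 (SE 0.06, adjusted p 7.0e-14) and by 0.85 for shRNA-4058 (SE 0.06, adjusted p 7.7e-12). Exons of TCF7 overlap those of SKP1 on the opposite strand, and the strand setting of the counts is not stated.

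LEF1 (ENSG00000138795.5, chromosome 4 from 108968701 to 109090112, minus strand) spanned a narrow range within each line, with the highest library 1.25 times the lowest in Jurkat and 1.18 times in HSB-2. In Jurkat its levels were 1009 and 1069 CPM in wild-type, 922 and 942 CPM in scrambled, 1148 and 1118 CPM with shRNA-4057 and 942 and 972 CPM with shRNA-4058. With shRNA-4057 it lay above all control libraries, and with shRNA-4058 it lay between scrambled and wild-type. The pooled log2 fold change was 0.19 (SE 0.09, edgeR quasi-likelihood adjusted p 0.14) and 0.037 against wild-type (adjusted p 0.82), and that of shRNA-4057 alone was 0.28 (SE 0.03, adjusted p 9.6e-08). The pooled value was called with library totals (0.44, adjusted p 0.0068), with the GC and length offset (0.28, adjusted p 0.029) and with the hairpins as separate groups (0.18, adjusted p 5.8e-05).

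In HSB-2, LEF1 stood at 514 CPM in both wild-type libraries, 463 and 469 CPM in scrambled, 504 and 497 CPM with shRNA-4057, and 437 and 456 CPM with shRNA-4058. The shRNA libraries lay on both sides of the scrambled ones and below wild-type. The pooled log2 fold change was 0.03 (SE 0.07, edgeR quasi-likelihood adjusted p 0.78) and -0.12 against wild-type (adjusted p 0.22). With shRNA-4057 LEF1 was called higher than scrambled at 0.10 (edgeR quasi-likelihood adjusted p 0.012), which was -0.02 with library totals and -0.04 against wild-type, and the call was lost without scrambled replicate 1 (0.09, adjusted p 0.082) or shRNA-4057 replicate 1 (0.09, adjusted p 0.087). The effect of shRNA-4057 was smaller in HSB-2 than in Jurkat by 0.18 (adjusted p 0.0022), while the difference for shRNA-4058 was not called (-0.10, SE 0.05, adjusted p 0.065) except without Jurkat shRNA-4058 replicate 1 (-0.12, adjusted p 0.044). LEF1 shares exonic bases with LEF1-AS1 on the opposite strand.

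TOX (ENSG00000198846.5) fell in Jurkat. It was at 171 and 173 CPM in wild-type, 194 and 197 CPM in scrambled, 119 and 124 CPM with shRNA-4057 and 115 and 121 CPM with shRNA-4058. All 4 shRNA libraries lay below all 4 control libraries. Its log2 change was -0.68 against scrambled (SE 0.06, adjusted p 3.2e-04) and -0.50 against wild-type (edgeR quasi-likelihood adjusted p 0.0057). Leaving out any library of the comparison kept the call, with values from -0.70 to -0.67 and a highest adjusted p of 0.013 by edgeR's quasi-likelihood test. The hairpins differed from each other by 0.04 (SE 0.04, adjusted p 0.40), which was not called.

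In HSB-2, TOX was at 123 and 119 CPM in wild-type, 112 and 114 CPM in scrambled, 127 and 132 CPM with shRNA-4057, and 124 and 125 CPM with shRNA-4058. The shRNA libraries lay above all controls, though the steps were small. The log2 fold change of 0.17 (SE 0.05, edgeR quasi-likelihood adjusted p 0.029) lost its call without scrambled replicate 1 (0.15, adjusted p 0.21), scrambled replicate 2 (0.19, adjusted p 0.12) or shRNA-4057 replicate 1 (0.17, adjusted p 0.055), and was 0.07 against wild-type (adjusted p 0.38) and 0.03 with library totals (adjusted p 0.71). With shRNA-4058 it was 0.14, and -0.02 with library totals. The effect was larger in HSB-2 than in Jurkat by 0.88 for shRNA-4057 (adjusted p 1.7e-12) and 0.87 for shRNA-4058 (adjusted p 1.4e-12). TOX overlaps TOX-DT on the opposite strand.

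TOX2 (ENSG00000124191.13, chromosome 20 from 42543492 to 42698256, plus strand), a little-studied relative of TOX, was a gene of low counts, from 133 to 1109 per library. In HSB-2 it was at 1.85 and 2.09 CPM in wild-type, 0.712 and 1.02 CPM in scrambled, 2.11 and 2.08 CPM with shRNA-4057, and 3.48 and 3.92 CPM with shRNA-4058. The scrambled libraries lay lowest, shRNA-4057 overlapped wild-type, and shRNA-4058 lay highest. It was 3.36-fold higher than scrambled (log2 1.75, SE 0.31, edgeR quasi-likelihood adjusted p 0.0024), and against wild-type the value was 0.55 (adjusted p 0.18). For shRNA-4057 alone it was 0.10 against wild-type (adjusted p 0.67) and for shRNA-4058 0.91 (edgeR quasi-likelihood adjusted p 5.5e-06).

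In Jurkat, TOX2 lay at 4.68 and 5.36 CPM in wild-type, 10.3 and 9.77 CPM in scrambled, 9.74 and 8.02 CPM with shRNA-4057 and 7.11 and 7.38 CPM with shRNA-4058. The shRNA libraries fell between the controls, below scrambled and above wild-type. The value against scrambled was -0.29 (SE 0.14, edgeR quasi-likelihood adjusted p 0.15), which was called without shRNA-4057 replicate 1 (-0.38, adjusted p 0.038) and with the hairpins as separate groups (-0.29, adjusted p 0.0047), and against wild-type TOX2 was called higher (0.71, adjusted p 0.033). It was higher with shRNA-4057 than with shRNA-4058 (0.30, edgeR quasi-likelihood adjusted p 0.049), a call that was lost with library totals (0.28, adjusted p 0.061) and on leaving out any of 11 libraries, with its value as low as 0.15 without Jurkat shRNA-4057 replicate 1 (adjusted p 0.52). The effect was larger in HSB-2 by 1.45 for shRNA-4057 (adjusted p 1.3e-06) and by 2.55 for shRNA-4058 (adjusted p 3.4e-11). With wild-type in place of scrambled in both lines, the first turned to -0.73 and was called the other way (adjusted p 0.0038), and the second was 0.37 and not called (adjusted p 0.096).

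BCL11A (ENSG00000119866.16, chromosome 2 from 60677655 to 60781602, minus strand) moved in opposite directions against scrambled in the 2 lines. In Jurkat it was at 61.1 and 65.2 CPM in wild-type, 64.3 and 66.7 CPM in scrambled, 37.7 and 37.8 CPM with shRNA-4057 and 42.1 and 42.6 CPM with shRNA-4058. The controls overlapped, and all 4 shRNA libraries lay below them. The log2 fold change was -0.69 (SE 0.08, edgeR quasi-likelihood adjusted p 0.0011) and -0.63 against wild-type (adjusted p 0.0078), and the call held on leaving out any library, with values from -0.72 to -0.65. CD79A, a B-lineage gene, was also lower in Jurkat (log2 -1.49, adjusted p 6.0e-05), but the B-lineage markers did not move together. MS4A1 was called higher at a low level (3.56, edgeR quasi-likelihood adjusted p 0.049). CD79B (-1.16), BLNK (-1.18) and EBF1 (0.31) were not called. The part of other lineage genes in the result for BCL11A was not tested. The hairpins' difference was -0.17 (adjusted p 0.061), which was called without Jurkat scrambled replicate 2 (-0.18, adjusted p 0.048), either wild-type library of HSB-2 (adjusted p 0.025 and 0.038), either scrambled library of HSB-2 (adjusted p 0.048 and 0.049) or shRNA-4058 replicate 2 of HSB-2 (adjusted p 0.046).

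In HSB-2, BCL11A had low counts, from 97 to 561 a library. Its levels were 1.92 and 1.43 CPM in wild-type, 0.519 and 0.666 CPM in scrambled, 2.53 and 2.14 CPM with shRNA-4057 and 2.70 and 2.43 CPM with shRNA-4058. The scrambled libraries were the lowest and the shRNA libraries the highest, with no overlap. It was 4.15-fold higher than scrambled (log2 2.05, SE 0.19, adjusted p 5.8e-05), while against wild-type the value was 0.53 and was not called (edgeR quasi-likelihood adjusted p 0.052). The effect in HSB-2 exceeded that in Jurkat by 2.77 for each hairpin (adjusted p 7.1e-13 and 1.3e-13), and by 1.15 (adjusted p 4.8e-07) and 1.16 (adjusted p 1.1e-07) with wild-type as the control. Scrambled cells had less BCL11A than wild-type cells in HSB-2 (-1.56, adjusted p 2.8e-09), and in Jurkat the difference was 0.05 (SE 0.07, adjusted p 0.62).

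BCL11B (ENSG00000127152.13, chromosome 14 from 99635624 to 99738534, minus strand) went the other way from BCL11A in Jurkat. It was at 348 and 367 CPM in wild-type, 353 and 362 CPM in scrambled, 406 and 392 CPM with shRNA-4057, and 428 and 427 CPM with shRNA-4058. The controls overlapped and the shRNA libraries lay above them. On the log2 scale it changed by 0.23 (SE 0.06, edgeR quasi-likelihood adjusted p 0.025) and 0.24 against wild-type (adjusted p 0.055), and the call was lost without scrambled replicate 1 (0.21, adjusted p 0.18) or scrambled replicate 2 (0.25, adjusted p 0.14). It was lower with shRNA-4057 than with shRNA-4058 (-0.10, adjusted p 0.036), a call lost without shRNA-4057 replicate 2 (-0.07, adjusted p 0.25), shRNA-4058 replicate 1 (-0.10, adjusted p 0.12) or shRNA-4058 replicate 2 (-0.10, adjusted p 0.085).

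In HSB-2, BCL11B was at 247 and 254 CPM in wild-type, 267 and 266 CPM in scrambled, 257 and 248 CPM with shRNA-4057, and 197 and 210 CPM with shRNA-4058. Only the shRNA-4058 libraries stood clear of both controls, on the low side. The pooled log2 fold change was -0.22 (SE 0.10, edgeR quasi-likelihood adjusted p 0.13), or -0.14 against wild-type (adjusted p 0.37), and was called without shRNA-4057 replicate 1 (-0.28, adjusted p 0.046), with library totals (-0.36, adjusted p 0.029) and with the hairpins as separate groups (-0.23, adjusted p 4.0e-07). With shRNA-4058 it fell by 0.39 on the log2 scale against scrambled (adjusted p 3.0e-09) and by 0.30 against wild-type (adjusted p 3.1e-07). The effect was smaller in HSB-2 than in Jurkat by edgeR's quasi-likelihood test, at -0.24 for shRNA-4057 (adjusted p 5.0e-04) and -0.65 for shRNA-4058 (adjusted p 1.6e-10).

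SATB1 (ENSG00000182568.12, chromosome 3 from 18386869 to 18487113, minus strand) fell with USP7 shRNA in Jurkat by 0.26 on the log2 scale (SE 0.06, edgeR quasi-likelihood adjusted p 0.022), which was not called with library totals (adjusted p 0.96). The libraries were at 217 and 217 CPM in wild-type, 212 and 215 CPM in scrambled, 183 and 184 CPM with shRNA-4057, and 166 and 168 CPM with shRNA-4058. Each group was tight and all shRNA libraries lay below all controls. Against wild-type the value was -0.28 (adjusted p 0.040). The call against scrambled was lost without scrambled replicate 1 (-0.28, adjusted p 0.12) or scrambled replicate 2 (-0.25, adjusted p 0.16), and with shRNA-4057 alone the value of -0.22 became 0.06 with library totals.

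In HSB-2, SATB1 was at 63.9 and 64.7 CPM in wild-type, 79.8 and 80.4 CPM in scrambled, 97.8 and 97.2 CPM with shRNA-4057, and 80.7 and 80.5 CPM with shRNA-4058. Levels with shRNA-4058 were close to scrambled, and wild-type lay lowest. The pooled log2 fold change of 0.16 was not called (SE 0.09, adjusted p 0.23), and against wild-type SATB1 was called higher (0.47, edgeR quasi-likelihood adjusted p 0.010). It was also called with the GC and length offset (0.25, adjusted p 0.031), with both controls together (0.30, adjusted p 0.048) and with the hairpins as separate groups (0.15, adjusted p 8.3e-04). Against scrambled it rose with shRNA-4057 by 0.28 (adjusted p 1.9e-07) and was at 0.01 with shRNA-4058 (SE 0.03, adjusted p 0.87), which was -0.15 with library totals. The effect was larger in HSB-2 than in Jurkat by 0.50 (adjusted p 4.3e-09) for shRNA-4057 and by 0.36 (adjusted p 5.3e-07) for shRNA-4058, the latter -0.09 with library totals. Merged exons of SATB1 overlap those of TBC1D5 on the same strand.

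**Figure D4:**
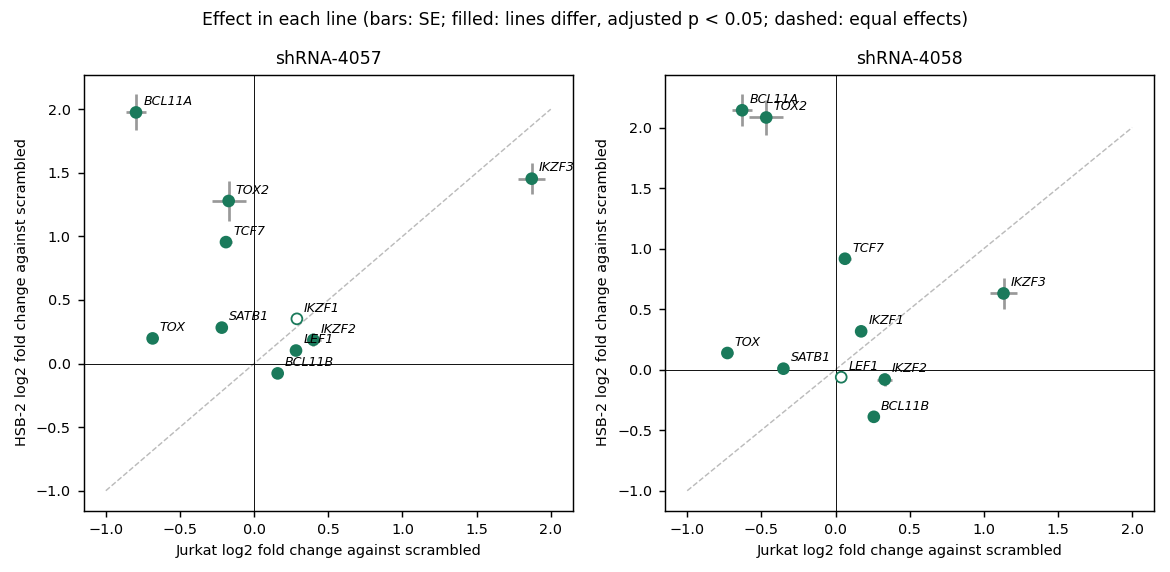
Log2 fold change against scrambled of each gene in Jurkat (horizontal axis) and HSB-2 (vertical axis) for shRNA-4057 and shRNA-4058, with SE bars, where filled points are genes whose effect differed between the lines at an adjusted p under 0.05 and the dashed line marks equal effects. BCL11A lies far above the line with either hairpin (a difference of 2.77), and IKZF3 lies below it.

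IKZF1 (ENSG00000185811.12, chromosome 7 from 50343664 to 50472799, plus strand) was higher than scrambled in both lines. In Jurkat it was at 498 and 500 CPM in wild-type, 406 and 410 CPM in scrambled, 498 and 499 CPM with shRNA-4057, and 460 CPM in both libraries with shRNA-4058. The scrambled libraries stood apart, and the shRNA libraries did not lie above wild-type. The log2 fold change against scrambled was 0.26 (SE 0.06, adjusted p 0.017) and against wild-type -0.03 (edgeR quasi-likelihood adjusted p 0.77). The first was lost without scrambled replicate 1 (0.24, adjusted p 0.13), without scrambled replicate 2 (0.26, adjusted p 0.12) and with both controls together (0.11, adjusted p 0.33), and with shRNA-4058 IKZF1 was lower than wild-type (-0.12, adjusted p 0.0035).

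In HSB-2, IKZF1 was at 296 and 308 CPM in wild-type, 263 and 257 CPM in scrambled, 329 and 334 CPM with shRNA-4057, and 319 and 328 CPM with shRNA-4058. Here the shRNA libraries lay above both controls. Its change was 0.34 on the log2 scale against scrambled (SE 0.05, edgeR quasi-likelihood adjusted p 6.6e-04) and 0.11 against wild-type (adjusted p 0.11). The lines' effects of shRNA-4057 differed by 0.06 (SE 0.04, adjusted p 0.25), which was not called, and those of shRNA-4058 by 0.14 (adjusted p 0.0069), and both values were below 0 with library totals (-0.33 and -0.30). A long noncoding gene overlaps its exons on the opposite strand.

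IKZF2 (ENSG00000030419.12, chromosome 2 from 213864415 to 214017151, minus strand), known from regulatory T cells, rose against scrambled in Jurkat. Its levels were 358 and 343 CPM in wild-type, 302 and 289 CPM in scrambled, 375 and 404 CPM with shRNA-4057, and 389 and 355 CPM with shRNA-4058. Scrambled lay lowest, and the shRNA libraries overlapped wild-type. It changed by a log2 value of 0.39 against scrambled (SE 0.07, adjusted p 0.0058) and 0.15 against wild-type (edgeR quasi-likelihood adjusted p 0.20). The call was lost without scrambled replicate 1 (0.41, adjusted p 0.052) or scrambled replicate 2 (0.36, adjusted p 0.079).

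In HSB-2, IKZF2 was at 193 and 203 CPM in wild-type, 231 and 204 CPM in scrambled, 244 and 250 CPM with shRNA-4057, and 203 and 207 CPM with shRNA-4058. The scrambled libraries differed from each other by more than those of any other group in this line. The pooled value was 0.06 (SE 0.10, edgeR quasi-likelihood adjusted p 0.64), 0.19 against wild-type (adjusted p 0.18) and 0.27 with the GC and length offset (adjusted p 0.018). With shRNA-4057 it was 0.19 (adjusted p 0.0041), not called without scrambled replicate 2 (0.10, adjusted p 0.16), and with shRNA-4058 it was -0.08 (adjusted p 0.19), which was called without scrambled replicate 2 (-0.17, adjusted p 0.0096) and was 0.16 with the GC and length offset. The effect was smaller in HSB-2 by 0.21 for shRNA-4057 (adjusted p 0.017) and by 0.41 for shRNA-4058 (adjusted p 2.9e-05), but the first was 0.0040 with the GC and length offset and lost its call without Jurkat scrambled replicate 2 (adjusted p 0.051), Jurkat shRNA-4057 replicate 2 (adjusted p 0.10), HSB-2 scrambled replicate 1 (adjusted p 0.17) or HSB-2 shRNA-4057 replicate 1 (adjusted p 0.060). With wild-type in place of scrambled in both lines, neither difference was called, at 0.17 for shRNA-4057 (adjusted p 0.074) and -0.031 for shRNA-4058 (adjusted p 0.77).

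IKZF3 (ENSG00000161405.12, chromosome 17 from 37913971 to 38020565, minus strand), best known from B cells, had the largest log2 fold change of the 10 genes in Jurkat against scrambled, at a low level. It was at 9.11 and 9.60 CPM in wild-type, 5.10 and 5.16 CPM in scrambled, 18.9 and 18.7 CPM with shRNA-4057, and 10.8 and 11.7 CPM with shRNA-4058. The shRNA libraries lay above both controls, clearly with shRNA-4057 and narrowly over wild-type with shRNA-4058. The pooled value was 1.57 (SE 0.26, edgeR quasi-likelihood adjusted p 0.0050), 2.97-fold, and against wild-type it was 0.71 (adjusted p 0.12). The call was lost without scrambled replicate 1 (1.56, adjusted p 0.055) or scrambled replicate 2 (1.58, adjusted p 0.061). In the fit of all libraries, each hairpin was above wild-type, by 1.01 for shRNA-4057 (adjusted p 1.5e-09) and 0.27 for shRNA-4058 (adjusted p 0.017), and the hairpins differed by 0.74 (adjusted p 1.6e-07).

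In HSB-2, IKZF3 was at 2.20 and 2.31 CPM in wild-type, 0.765 and 0.968 CPM in scrambled, 2.29 and 2.44 CPM with shRNA-4057, and 1.39 and 1.23 CPM with shRNA-4058. Wild-type and shRNA-4057 overlapped, and shRNA-4058 lay between the controls. The value was 1.09 against scrambled (SE 0.31, adjusted p 0.022) but -0.30 against wild-type (edgeR quasi-likelihood adjusted p 0.47). Against scrambled the call was lost without scrambled replicate 1 (0.92, adjusted p 0.18) or scrambled replicate 2 (1.27, adjusted p 0.081), and with both controls together (0.24, adjusted p 0.66). With shRNA-4058 alone it was above scrambled (0.63, adjusted p 2.2e-04) and below wild-type (-0.75, adjusted p 1.1e-05). The effect was smaller in HSB-2 than in Jurkat by 0.42 for shRNA-4057 (adjusted p 0.028) and 0.50 for shRNA-4058 (adjusted p 0.0093), and without HSB-2 scrambled replicate 2 these were -0.24 (adjusted p 0.30) and -0.33 (adjusted p 0.14). The first call was also lost, at an adjusted p from 0.052 to 0.093, without either Jurkat scrambled library, either Jurkat shRNA-4057 library or HSB-2 shRNA-4057 replicate 1. With wild-type as the control in both lines the differences were -0.93 (adjusted p 1.1e-05) and -1.02 (adjusted p 3.3e-06).

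Genes around these factors were counted from lists chosen by function, against scrambled unless said otherwise. In that comparison 12.4% of all genes tested were called higher and 15.7% lower in Jurkat, and 20.3% and 17.8% in HSB-2. Against wild-type, calls over all genes fell from 5965 to 1798 in Jurkat and from 8049 to 5010 in HSB-2. Their split into higher and lower is not reported here, so the list counts against wild-type below are not set against a background. Of the 7 paralogs, 6 were tested in each line, and 1 was called lower in Jurkat, IKZF5 (log2 -0.24, edgeR quasi-likelihood adjusted p 0.041), while 2 were higher in HSB-2, among them TOX4 (0.25, adjusted p 0.0063). Of 20 other transcription factors of the T lineage, 5 were called higher and 4 lower in Jurkat. The largest were KLF2, a factor of mature resting T cells (2.13, adjusted p 6.0e-05), FOXO1, which activates KLF2 (1.59, adjusted p 0.0045), and ETS2 (-0.97, adjusted p 0.016). In HSB-2, 13 were higher and 3 lower, led by NR4A1, an immediate-early gene of T-cell receptor signalling (2.55, adjusted p 9.3e-08), KLF2 (2.47, adjusted p 1.2e-04) and ZBTB16, the factor PLZF of innate-like T cells (2.39, adjusted p 9.1e-08). The list's median log2 fold change was 0.22 in Jurkat and 0.53 in HSB-2. Against wild-type, 3 of the 20 were called higher and 2 lower in Jurkat, where KLF2 was at 0.64 (adjusted p 0.011) and FOXO1 (0.72, adjusted p 0.12) and ETS2 (-0.20, adjusted p 0.61) were not called, and 10 were higher and 1 lower in HSB-2, where KLF2 was at 1.37, NR4A1 at 0.81 and ZBTB16 at 0.41.

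Partners and feedback targets of TCF7 and LEF1 moved in both directions. Of 18 tested in Jurkat, 6 were called higher and 6 lower (median 0.13), and of 16 in HSB-2, 10 were higher and 3 lower (median 0.39). The largest in Jurkat were TNFRSF19 (2.19, adjusted p 0.0023, at a mean of at most 0.84 CPM in any group), NKD2, a Wnt inhibitor (-1.40, adjusted p 5.9e-04), and BCL9L, a beta-catenin co-activator (1.02, edgeR quasi-likelihood adjusted p 0.026). In HSB-2 they were JUP, the beta-catenin relative plakoglobin (1.52, adjusted p 1.4e-05), TLE4, a co-repressor (1.26, adjusted p 4.0e-05), and AXIN2, a standard feedback target of Wnt signalling (-0.75, adjusted p 0.0023). AXIN2 was thus lower in HSB-2, where TCF7 was higher than scrambled, but against wild-type AXIN2 was not called (-0.10, adjusted p 0.64). Against wild-type 1 gene of this list was called higher and 2 lower in Jurkat, and 6 higher and 0 lower of 15 tested in HSB-2, where JUP was at 0.64 and TLE4 at 0.49.

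Of the 14 NuRD subunits, partners of the Ikaros and BCL11 proteins, 3 were called higher and 3 lower in Jurkat, and 1 higher and 2 lower in HSB-2, with medians of -0.0094 and -0.048. The 3 largest in Jurkat were MTA3 (-0.33, adjusted p 0.0080), RBBP7 (-0.33, adjusted p 0.022) and GATAD2A (0.32, adjusted p 0.025), and in HSB-2 the histone deacetylase HDAC2 (-0.25, adjusted p 0.0028), MTA2 (0.23, adjusted p 0.035) and RBBP4 (-0.15, edgeR quasi-likelihood adjusted p 0.034). Against wild-type 2 subunits were called, both higher, in Jurkat, among them GATAD2A (0.36, adjusted p 0.043), and in HSB-2 HDAC2 (-0.094, adjusted p 0.16), MTA2 (-0.14, adjusted p 0.17) and RBBP4 (-0.0083, adjusted p 0.91) were not called. The T-lineage markers had a median of -0.34 in Jurkat, with CD3D at -0.68, CD2 at -0.47 and LCK at -0.40, and of 0.65 in HSB-2, with CD2 at 2.38, CD5 at 0.99 and CD3D at 0.86. Against wild-type CD2 was not called in either line (-0.42, edgeR quasi-likelihood adjusted p 0.056 in Jurkat, and 0.26, adjusted p 0.40 in HSB-2). CD3D (-0.25) and LCK (-0.21) in Jurkat and CD5 (0.66) and CD3D (0.41) in HSB-2 were called against wild-type. Of the B-lineage markers, 1 of the 5 tested was higher (MS4A1, under 1 CPM) and 1 lower (CD79A) in Jurkat. All 3 tested were higher in HSB-2 (PAX5 by 2.13, EBF1 by 1.14 and CD79A by 1.02). Against wild-type there, PAX5 was at 0.70 (edgeR quasi-likelihood adjusted p 0.036), while EBF1 (0.25, adjusted p 0.65) and CD79A (-0.37, adjusted p 0.22) were not called. None of the 3 myeloid markers tested in Jurkat was called, and CD33 was higher (2.16) and SPI1 lower (-2.75) in HSB-2, both under 1 CPM. Of the 3 erythroid and megakaryocyte markers tested in each line, ITGA2B (-0.94) and EPOR (-0.50) were lower in Jurkat and EPOR was higher in HSB-2 (0.33), and HBB and PF4 had at most 3 counts in every library.

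**Figure D5:**
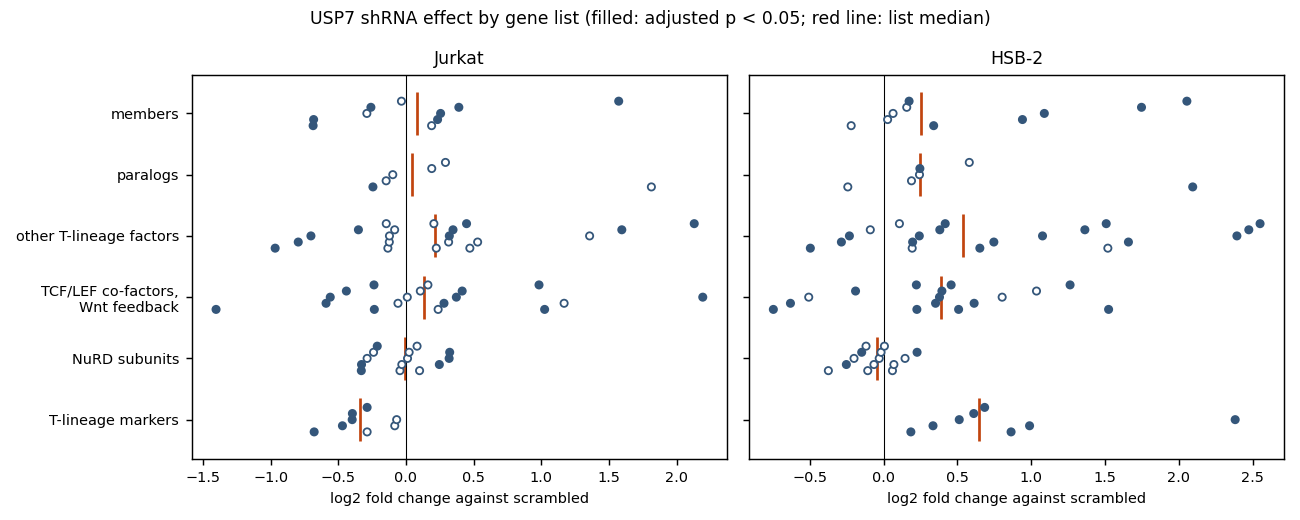
Log2 fold change of USP7 shRNA against scrambled in Jurkat and HSB-2 for the 10 factors and for 5 other lists, with 1 point per gene tested, filled where the adjusted p was under 0.05, and a line at each list's median (vertical offsets within a list carry no value). The T-lineage markers lie below 0 in Jurkat (median -0.34) and above 0 in HSB-2 (median 0.65).

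Genes with a like pattern were sought among 12556 genes by Pearson's r of log2 CPM centred within each line, over 16 libraries that share groups, as a description. The highest r was that of TCF7 with HDAC4 (0.97), of LEF1 with ENSG00000260997 (0.97), of BCL11A with LPAR5 (0.98), of BCL11B with FAM215B (0.96) and of SATB1 with TMEM245 (0.94). For TOX it was SPRED2 (0.97, but 0.65 within the 8 HSB-2 libraries), for TOX2 the actin-binding gene CFL1 (0.97), for IKZF1 INPP4A (0.96), for IKZF2 TRIM33 (0.98) and for IKZF3 RNVU1-13 (0.98), a small nuclear RNA gene with near-identical copies whose counts are uncertain. Next in order came SEC14L1 and SNTB1 for TCF7, RANBP10 and MLXIP for LEF1, MPST and PRKCQ-AS1 for BCL11A, SFXN2 and ENSG00000272219 for BCL11B, TBC1D4 and CD38 for SATB1, TSG101 for TOX, ACTB and SH3BGRL3 for TOX2, CDCA2 and PAG1 for IKZF1, TAOK1 and KIAA2026 for IKZF2, and RIPK1 and ENSG00000264198 for IKZF3. Among the 10 factors themselves, TCF7 and BCL11A were most alike (r 0.88), followed by LEF1 and IKZF3 (0.79), and BCL11A and BCL11B were least alike (-0.68). These values pool both lines, and those within each line are not reported here. The highest BCL11A library was 5.20 times the lowest in HSB-2 and 1.77 times in Jurkat. In Jurkat BCL11A was lower than scrambled (log2 -0.69) while TCF7 was not called (-0.03).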

How the data were processed

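RNA-seq of 16 libraries, 2 in each of 8 groups, was analysed from 1 table of counts per gene. Per the labels, total RNA was ribo-depleted and made into stranded libraries. The authors mapped reads to GRCh37 with a pipeline built on BWA and made the deposited raw counts with HTSeq, version 0.6.1p1 in the submitters' processing notes, which also name STAR and CASAVA, with no normalization and no pooling, and the strand setting and annotation release are not given in the sources used here. The table lists Ensembl IDs, and symbols, positions and merged exon lengths came from GENCODE release 44 on GRCh37 (96.32% of genes tested were matched). Isoforms cannot be told apart. Every column was used.

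Counts were fitted with edgeR 4.0.16 (R 4.3.3): filterByExpr, TMM factors (0.882 to 1.15), the quasi-likelihood F-test, and adjustment by Benjamini and Hochberg over 21288 genes in Jurkat, 21113 in HSB-2 and 23063 in the 8-group fit. A gene was called at an adjusted p under 0.05. SE is the absolute log2 fold change divided by the square root of F. Levels are TMM-scaled CPM. A floor of 3 counts was 0.0132 to 0.0444 CPM and covers counting error only. Biological coefficients of variation were 14.3%, 10.7% and 4.20%. In no group were the replicates within sampling noise of each other. The likeness search used a prior count of 2 and genes whose mean reached 1 CPM in both lines.

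The 10 genes and the other lists were chosen with earlier results of these data known. All 10 were named, whatever their values, and of every other list of partner and factor genes up to 3 called genes per line with the largest change. Marker values were given as measured. Alternatives were DESeq2 1.42.0, RLE factors, library totals, other filters, an offset for GC content and length, other controls, a replicate block, separate hairpins and leaving out each library. Single hairpins, the lines' difference and the other lists against wild-type were added after seeing the data. The steps were tested on simulated counts. A few genes of the lists and of the likeness search are not reported here.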

Additional observations from a re-analysis of the deposited data

Results flagged for a closer look

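The difference in shRNA effect between the lines, HSB-2 minus Jurkat as log2 values from the fit of all libraries, was called by edgeR's quasi-likelihood test for 9 of the 10 genes with each hairpin, 5 higher and 4 lower with shRNA-4057, where 24.9% and 21.8% of all genes were called, and 6 higher and 3 lower with shRNA-4058, where 29.6% and 26% were. For shRNA-4057 it was 2.77 for BCL11A, 1.45 for TOX2, 1.14 for TCF7, 0.88 for TOX and 0.50 for SATB1, and it was -0.18 for LEF1, -0.21 for IKZF2, -0.24 for BCL11B and -0.42 for IKZF3. For shRNA-4058 it was 2.77 for BCL11A, 2.55 for TOX2, 0.87 for TOX, 0.85 for TCF7, 0.36 for SATB1 and 0.14 for IKZF1, and it was -0.41 for IKZF2, -0.50 for IKZF3 and -0.65 for BCL11B. Each difference rests on the scrambled libraries of both lines, and in HSB-2 the scrambled libraries were lower than wild-type in BCL11A, TOX2, TCF7 and IKZF3. With wild-type in place of scrambled in both lines, TOX2 turned to -0.73 for shRNA-4057 (adjusted p 0.0038) and was 0.37 for shRNA-4058 (adjusted p 0.096), IKZF2 was 0.17 and -0.031 with neither called, and BCL11A was 1.15 and 1.16. The values of TCF7 were then 1.01 and 0.72, of TOX 0.60 and 0.59, of SATB1 0.84 and 0.70, of IKZF3 -0.93 and -1.02, and of BCL11B -0.15 and -0.56, each called by edgeR's quasi-likelihood test. LEF1 was at -0.16 for shRNA-4057 and IKZF1 at 0.22 for shRNA-4058, both called as well. This control was chosen after seeing the data. Against scrambled, USP7 itself fell less in HSB-2 than in Jurkat, by 0.82 for shRNA-4057 and 0.17 for shRNA-4058. The part of that unequal loss in these differences was not tested.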

How the results depend on the processing

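The number of members called was within 1.5 times the reported one in 287 of 291 alternatives. Many of the 291 leave out a library outside the comparison, which could change little. The measure compares totals, not which genes were called. With library totals, 7 were again called in the pooled Jurkat comparison, but 5 higher and 2 lower, with 6 calls the same. The 4 that moved were all pooled comparisons: either line against wild-type, and Jurkat without either scrambled library. With wild-type cells as control the number called was 4 in Jurkat and 2 in HSB-2. Leaving out 1 library gave 2 to 8 in the pooled Jurkat and 4 to 6 in the pooled HSB-2 comparison. In the fit of all libraries it gave 9 for shRNA-4057 and 8 to 9 for shRNA-4058 in Jurkat, 8 to 9 and 7 to 8 in HSB-2, 5 to 8 and 6 between the hairpins in Jurkat and HSB-2, 7 and 7 to 9 for scrambled against wild-type, 10 between wild-type lines, and 7 to 9 and 8 to 10 for the lines' difference. With 1 scrambled library left, that library is assumed to vary like the other groups.

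Library totals without TMM moved the median of all genes by 0.25 in Jurkat and -0.14 in HSB-2 and reversed 9 values: for shRNA-4057 TCF7 (0.084) and SATB1 (0.06) in Jurkat and LEF1 (-0.015) in HSB-2, for shRNA-4058 SATB1 (-0.15) and TOX (-0.024) in HSB-2, BCL11B between Jurkat controls (-0.16), and in the lines' difference IKZF1 (-0.33 and -0.30) and SATB1 (-0.086). The GC and length offset reversed IKZF2 with shRNA-4058 in HSB-2 (0.16), SATB1 between Jurkat controls (0.078) and IKZF2 in the lines' difference (0.0040). Wild-type as control reversed TOX2 (pooled 0.71, singly 0.83 and 0.53) and IKZF1 (-0.030, singly -0.0028 and -0.12) in Jurkat, TCF7 (-0.14) and LEF1 (-0.12) with shRNA-4058 in Jurkat, and in HSB-2 IKZF3 (-0.30, and -0.75 with shRNA-4058) and LEF1 with shRNA-4057 (-0.039), and in the lines' difference for shRNA-4057 TOX2 (-0.73) and IKZF2 (0.17). The causes were not tested. Of 2910 fold changes, 2733 stayed called in the same direction or stayed not called, and 42 of these, not called either way, changed sign. Many of the 2910 likewise come from leaving out a library outside the comparison.

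The replicate numbers were not taken to pair the samples: deviations of same-numbered libraries correlated at 0.26 to 0.28 for 3 Jurkat pairs, but below 0 for those with shRNA-4057, and at -0.24 to 0.16 in HSB-2. With the replicate block, 5 members were called in each pooled comparison, where BCL11B (adjusted p 0.062), SATB1 (0.055) and, in HSB-2, TOX (0.062) were not. Over all genes, the pooled calls were 5965 in Jurkat and 8049 in HSB-2, and 1798 and 5010 with wild-type as control, 11506 and 12128 with separate hairpins, and 1434 to 1873 and 3801 to 4518 without a scrambled library. Between hairpins in HSB-2 they were 5716, and 3713 without shRNA-4057 replicate 2. DESeq2 called the same 7 and 6 members in the pooled comparisons.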
